A study of Homo sapiens with 9 samples.

Results

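The guidance receptors and ligands described here are the Eph receptors, their ephrin ligands, the ROBO receptors with their SLIT ligands, and the netrins with the receptors DCC, NEO1 and UNC5. Membership was set by gene symbol, for families picked with earlier results of these data known, and the genes number 39 of the 58051 genes in the count table (14 Eph receptors, 8 ephrins, 4 ROBO receptors, 3 SLITs, 4 netrins and 6 netrin receptors). RNA was sequenced from A431, an epidermoid carcinoma line that carries endogenous mutant p53, in 3 groups of 3 libraries each. Parental cells were unedited, Ctrl cells had received an empty CRISPR vector and kept mutant p53, and p53 KO cells had received a CRISPR construct against p53. All 3 groups were grown in DMEM with serum, and per the labels the cells had first been raised as single colonies, so a line that derives from few cells and the loss of p53 cannot be told apart. In bulk RNA, fewer cells that express a gene and less of its RNA per cell cannot be told apart. Nothing in the labels says whether the 3 libraries of a group came from separate cultures, so the p-values measure only the spread between libraries, which may be technical.

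Eph receptors are receptor tyrosine kinases that bind ephrins on a neighbouring cell, and signals run into both cells. Ephrin-A ligands are held in the membrane by a lipid anchor and ephrin-B ligands by a transmembrane segment, and in epithelia the pairs help to set cell sorting, boundaries and contact repulsion. SLITs are secreted repellents read by ROBO receptors, and netrins are secreted laminin-related proteins read by DCC, neogenin (NEO1) and the UNC5 receptors. UNC5 receptors and DCC are also known as dependence receptors, which promote cell death when no ligand is bound.

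Library totals lay between 19783778 and 29840452 counts. Differences are given as the log2 fold change (log2FC) with its standard error (SE), and every adjusted p comes from the quasi-likelihood test of edgeR, corrected by Benjamini-Hochberg across all genes tested. Of 7 keratinocyte markers, 6 were above 3 counts in parental and Ctrl libraries and KRT14 was not, with at most 3 counts. Their summed level was 9950 to 12500 CPM (counts scaled to a common library size) in Ctrl, 15700 to 18800 in parental and 14500 to 15400 in p53 KO libraries. A single marker reached 304142 counts in a Ctrl, 452758 in a parental and 409164 in a p53 KO library, so 1 gene can make up most of this sum. The part of this shift in the results below was not tested. Of 4 neural markers, TUBB3 was above 3 counts in all groups and SYT1 in p53 KO cells alone, while GFAP and SNAP25 were at 0. Their summed level was 0.572 to 0.867 CPM in Ctrl, 1.3 to 1.88 in parental and 2.01 to 2.58 in p53 KO libraries, the same order of groups as for EPHB6, EPHA4, ROBO1 and NGEF below, and its part in those results was not tested. Of 5 fibroblast markers COL1A1 was above 3 counts (at most 114) and DCN, LUM and PDGFRA were at 0 in every library. Of 4 leukocyte markers CD68 was above 3 counts in all groups and CD14 in parental and p53 KO cells (at most 42 counts), and PTPRC and CD3E were at 0. Of 4 endothelial markers CDH5 and PECAM1 were above 3 counts (at most 13) and KDR was at 0. The summed levels of these last 3 lists were at most 4.36, 1.64 and 0.703 CPM. Ctrl replicate 1 stood farthest from its group, with a mean chi-square per gene of 39.4 and 51.8 against the other Ctrl libraries, where the remaining pairs of replicates gave 5.35 to 16.4.

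Not all of these genes were detected in A431 cells. Enough counts for a test were found for 21 of the 39 genes, where 14513 of all 58051 genes had enough. The 21 were 8 Eph receptors, 6 ephrins, 2 ROBO receptors, 1 SLIT, 1 netrin and 3 netrin receptors. Of the 18 others, 7 had 0 counts in every library (EPHA5, EPHA7, EPHA8, EFNA2, UNC5C, NTN1 and DCC), and a count of 0 puts such a gene below 3 counts per library, not at absence. EPHA6, EPHB1, EFNB3, ROBO2, ROBO4, SLIT1, SLIT3, UNC5D, NTN3 and NTN5 had at most 6 counts in any library. Netrin-1 and DCC, the founding ligand and receptor of the netrin system, were thus both undetected at this depth in all 3 groups.

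EPHA2 RNA was the highest of these genes. Per kb of exon, the mean EPHA2 level was 47.3 CPM for parental, 51.4 for Ctrl and 45.3 for p53 KO cells, and it made up 66.3% to 68.8% of the summed level of the 14 Eph receptors in the 3 groups. The next receptors were EPHA1 (9.36 CPM per kb in parental cells) and EPHB2 (8.58). Among the ligands EFNB2 and EFNB1 were highest in parental cells, at 15.4 and 14.6 CPM per kb. The order of this pair followed the line: EFNB1 led in Ctrl cells with 37.1% of the summed ephrin level and EFNB2 in p53 KO cells with 38.1%. ROBO receptors and SLITs lay far lower, at a summed level of 0.661 to 0.856 and 0.149 to 0.165 CPM per kb in parental libraries. These levels compare genes by length, and the longest annotated transcript in place of all exons moved EPHA1 in parental cells from 9.36 to 13.3 CPM per kb. Before division by length, parental cells had 196 CPM of EPHA2 and 107 of EPHB2, over 4.141 and 12.516 kb of exon. The shares above therefore rest on the lengths used.

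**Figure D1:**
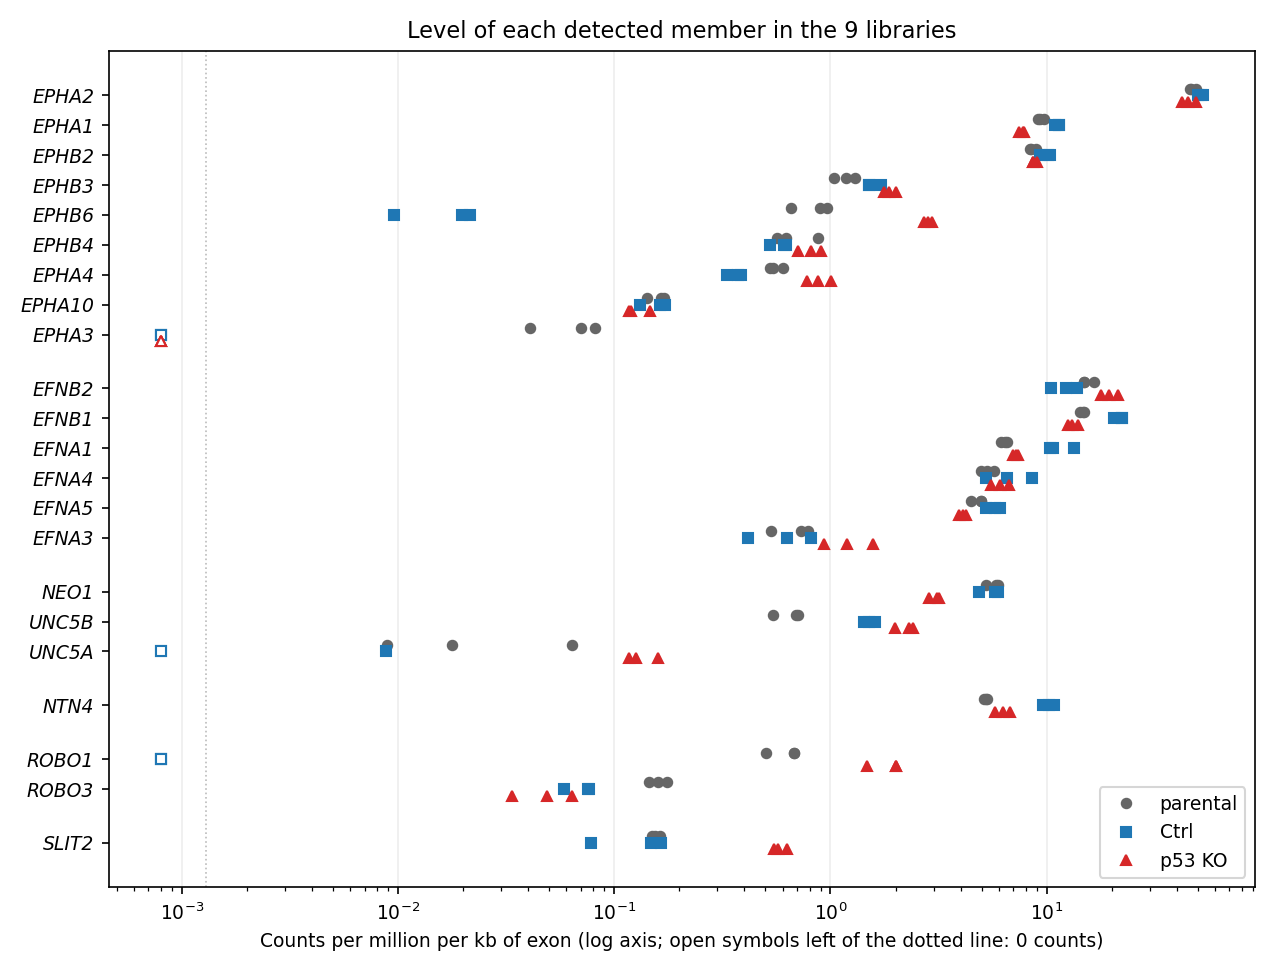
Level of the 21 genes tested and of EPHA3 in each of the 9 libraries, in CPM per kb of exon on a log axis, grouped by family and ordered by the parental mean. Circles are parental, squares Ctrl and triangles p53 KO libraries, and open symbols left of the dotted line stand for 0 counts. EPHA2 is the highest gene in all 3 groups, and the Ctrl squares of EPHB6 and ROBO1 lie apart from the other libraries.

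In p53 KO against parental cells, 8 of the 21 genes tested were higher and 3 lower at an adjusted p of at most 0.05, where 9.77% of all 14513 genes tested were higher and 8.36% lower. Against Ctrl cells 8 were higher and 6 lower, where 15% of all genes were higher and 14.2% lower. In Ctrl against parental cells 6 were higher and 5 lower, where 10.6% of all genes were higher and 9.69% lower. The 3 comparisons share libraries in pairs, so they are given side by side and are not independent of each other. At a log2FC beyond 1.5 in size, 6 members passed in p53 KO against parental cells (background 1.95%). The number was 4 for p53 KO against Ctrl cells (background 3.29%), while Ctrl against parental cells gave 2 (background 1.94%). Median log2FC values of the 21 genes were 0.22, -0.14 and -0.03 in these comparisons, where the medians over all genes tested were 0.01, 0.01 and 0.00. UNC5A passed the filter on low counts only through the p53 KO libraries, so it had to be high there, and without it the numbers higher in p53 KO cells, and those beyond 1.5, are each lower by 1.

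Libraries were also compared without a model. For p53 KO cells, each of the 3 libraries fell beyond the 6 remaining ones for 13 of the 21 genes (background 22.0%), 9 above and 4 below. For Ctrl this held for 12 genes (background 22.2%), 7 above and 5 below, and for parental cells for 5 genes (background 16.2%). Without Ctrl replicate 1 these numbers were 14, 12 and 5, where 30.8%, 28.5% and 17.7% of all genes tested were separated in this way. UNC5A is counted among the 9 above for p53 KO cells and among the 5 below for Ctrl cells. Since it passed the filter only through the p53 KO libraries, its place in these numbers is a description.

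**Figure D2:**
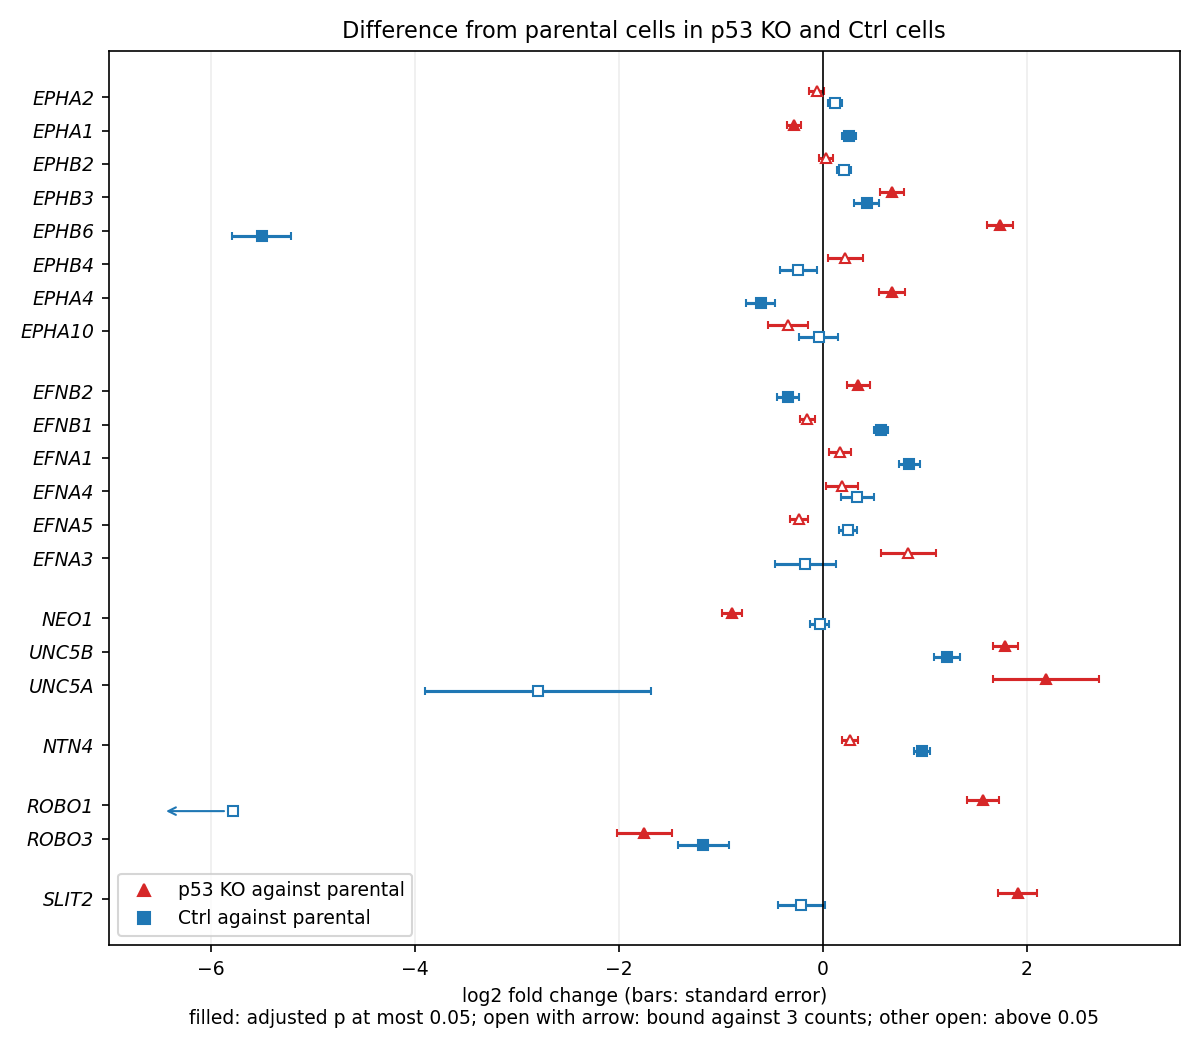
log2FC of each of the 21 genes tested, in p53 KO (triangles) and Ctrl cells (squares) against parental cells, with bars for the SE. Filled symbols have an adjusted p of at most 0.05. For UNC5A the filled symbol is a description, since the filter fixed its direction. ROBO1 in Ctrl cells, where all libraries had 0 counts, is drawn open with an arrow at its bound against 3 counts per library. The filled symbols of EPHB6, EPHA4, EFNB2 and EPHA1 fall on opposite sides of 0 in the p53 KO and Ctrl lines, as do the p53 KO symbol and the Ctrl arrow of ROBO1.

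Among the Eph receptors, EPHB6 differed most. EPHB6 is a kinase-defective member of the family that signals through partner Eph receptors. It had 4.74, 5.15 and 3.51 CPM in parental, 0.051, 0.105 and 0.114 in Ctrl, and 14.4, 15 and 15.7 in p53 KO libraries. The 3 groups did not overlap, with Ctrl cells lowest and p53 KO cells highest. In p53 KO cells EPHB6 rose by a log2FC of 1.74 against parental cells (SE 0.13, adjusted p = 1.39e-05), a 3.34-fold difference. The Ctrl libraries held 7 counts in all, against 334 in parental and 1140 in p53 KO libraries. The p53 KO level was therefore 159 times the Ctrl level (95% exact interval 76.8 to 396, for counting error only), and the parental level 48.0 times it (23.1 to 120). Both differences from Ctrl cells passed the test (adjusted p = 1.99e-08 and 1.18e-06), so the comparison of p53 KO with Ctrl cells combines a low Ctrl and a high p53 KO level.

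Because EPHB6 had so few counts in Ctrl cells, the 250 bases before its RefSeq start are shown (GRCh38.p14, chr7:142862506-142862755, plus strand, 5′ to 3′). Capitals mark a GC box (GGGCGG on either strand), which 42.6% of 35116 RefSeq promoters hold at this length.
EPHB6: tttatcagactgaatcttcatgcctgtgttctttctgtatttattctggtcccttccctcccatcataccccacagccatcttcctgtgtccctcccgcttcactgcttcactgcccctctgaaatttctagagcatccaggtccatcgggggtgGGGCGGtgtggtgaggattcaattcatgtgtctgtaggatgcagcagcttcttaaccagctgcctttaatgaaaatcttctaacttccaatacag
This RefSeq start lies inside the GENCODE gene, which begins at 142855061, so a start farther upstream is not covered. The window has 3 CpG dinucleotides, fewer than the median of 11 over all promoters. It holds no p53 decamer and no TATAAA, which says only that these letters are not in this window.

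EPHA4, a receptor that binds both ephrin classes, followed the same order of groups over a smaller range. It had 4.55, 3.96 and 4.11 CPM in parental, 2.5, 2.92 and 2.82 in Ctrl, and 7.61, 6.62 and 5.85 in p53 KO libraries. The groups did not overlap. EPHA4 rose in p53 KO cells by a log2FC of 0.68 against parental (SE 0.13, adjusted p = 0.00412) and 1.28 against Ctrl cells (SE 0.14, adjusted p = 5.07e-05). In Ctrl against parental cells it fell by 0.61 on the log2 scale (SE 0.14, adjusted p = 0.0140). The fall was lost without parental replicate 1 (adjusted p = 0.0632).

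EPHA3 was found in parental cells only at this depth. It had 7, 14 and 10 counts in parental libraries and 0 in all 6 others, and was too low for the filter. Against the floor of 3 counts per library it was at least 3.49-fold lower in p53 KO and at least 3.40-fold lower in Ctrl than in parental cells. EPHB3, a kinase-active EphB receptor, was lowest in parental libraries (4.71 to 5.89 CPM) and did not overlap with Ctrl (6.85 to 7.80) or p53 KO libraries (7.99 to 9.12). It rose in p53 KO against parental cells by a log2FC of 0.68 (SE 0.12, adjusted p = 0.00215). It also rose in Ctrl cells, by 0.43 (adjusted p = 0.0282), although this call was lost when any 1 of 4 libraries was dropped (parental replicates 1 and 3, Ctrl replicates 1 and 2).

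EPHA1 moved less, in opposite directions in the 2 lines. Its level was 42.8 to 45.6 CPM in parental, 51.4 to 53.5 in Ctrl and 35.1 to 36.8 in p53 KO libraries, so the ranges did not touch. Its log2FC was -0.28 in p53 KO (adjusted p = 0.0154) and 0.26 in Ctrl cells (adjusted p = 0.0220), each against parental cells, and -0.55 between the lines (adjusted p = 0.000152). Both differences from parental cells lost the call when single libraries were left out (highest adjusted p = 0.0708 and 0.0969). EPHA2, EPHB2, EPHB4 and EPHA10 passed the test in none of the 3 comparisons. The log2FC of EPHA2 in p53 KO against parental cells was -0.06 with an SE of 0.07.

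**Figure D3:**
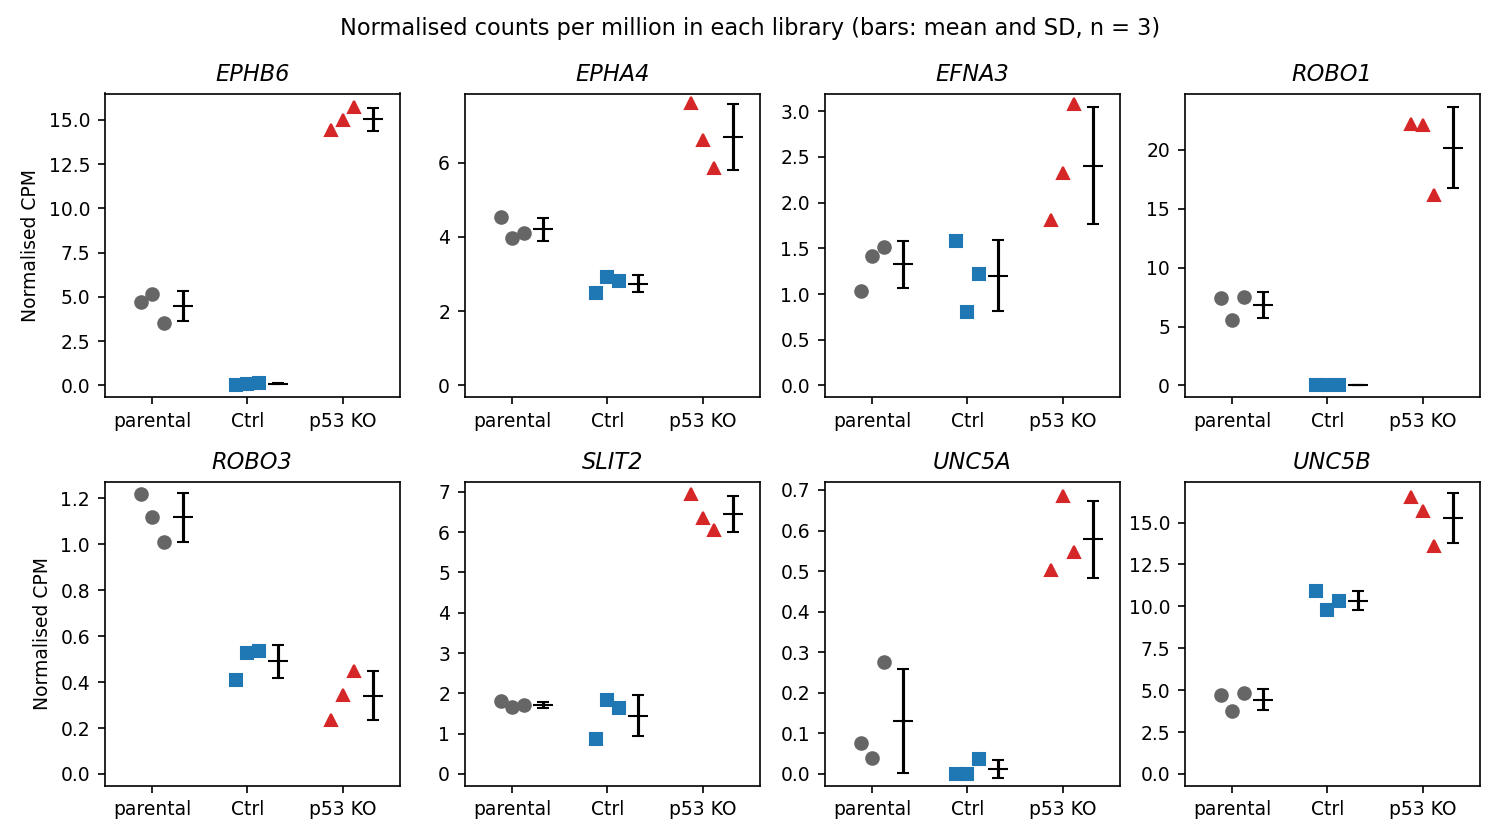
Normalised CPM of the 8 genes with an adjusted p of at most 0.05 and a log2FC above 1 in size in at least 1 comparison. UNC5A is among them as a description, since it passed the filter only through the p53 KO libraries. Points are libraries, and bars give the mean and SD of the 3 libraries of a group. The Ctrl points of EPHB6 and ROBO1 sit at or near 0 and those of p53 KO are highest, while ROBO3 is highest in parental libraries.

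The ephrins differed by at most 2.01-fold in any comparison. EFNB2, the transmembrane ligand of EPHB4 and EPHA4, had 73.9 to 83.3 CPM in parental, 52.8 to 69.0 in Ctrl and 89.8 to 107 in p53 KO libraries. It was higher in p53 KO than in Ctrl cells by a log2FC of 0.68 (SE 0.11, adjusted p = 0.000658). Its differences from parental cells were 0.35 in p53 KO (adjusted p = 0.0442) and -0.34 in Ctrl cells (adjusted p = 0.0463), and each was lost on dropping any 1 of 7 of the 9 libraries. In the annotation used, 36.4% of its exon bases are also exon of a gene on the opposite strand, and whether the counting used strand is not given in the sources used here, so reads of the pair may be mixed.

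EFNB1 and EFNA1 rose in Ctrl cells. EFNB1 had 47.2 to 49.0 CPM in parental, 67.7 to 73.8 in Ctrl and 41.6 to 46.3 in p53 KO libraries, with no overlap. Its log2FC was 0.57 in Ctrl against parental cells (SE 0.07, adjusted p = 0.000435) and -0.71 in p53 KO against Ctrl cells (adjusted p = 4.17e-05). EFNA1, the main ligand of EphA2, had 13.3 to 14.3 CPM in parental, 22.6 to 29.1 in Ctrl and 15.2 to 15.9 in p53 KO libraries. It rose in Ctrl against parental cells by 0.85 (SE 0.10, adjusted p = 0.000330). For p53 KO against parental cells the values were -0.15 for EFNB1 (adjusted p = 0.201) and 0.17 for EFNA1 (adjusted p = 0.292). EFNA5 was lower in p53 KO than in Ctrl cells by 0.49 on the log2 scale (adjusted p = 0.00158).

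EFNA3 had 1.03, 1.42 and 1.52 CPM in parental, 1.58, 0.808 and 1.22 in Ctrl, and 1.81, 2.32 and 3.08 in p53 KO libraries. The p53 KO libraries lay above all others, and parental and Ctrl libraries overlapped. The log2FC in p53 KO cells was 1.01 against Ctrl (SE 0.27, adjusted p = 0.0173) and 0.84 against parental cells (adjusted p = 0.0527). The former was lost without Ctrl replicate 2 (adjusted p = 0.0723) or p53 KO replicate 3 (0.0578). EFNA3 shares 43.9% of its exon bases with the readthrough gene EFNA4-EFNA3, so its counts are uncertain. Its neighbour EFNA4, with 15% shared, passed in no comparison.

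ROBO1, a receptor that binds SLITs, differed between the lines from undetected to well above the parental level. It had 7.46, 5.54 and 7.47 CPM in parental libraries, 0 counts in all 3 Ctrl libraries, and 22.2, 22.1 and 16.2 CPM in p53 KO libraries. The p53 KO libraries were above the parental ones without overlap. In p53 KO cells ROBO1 rose by a log2FC of 1.57 against parental cells (SE 0.16, adjusted p = 0.000331), or 2.97-fold. Against the floor of 3 counts in each Ctrl library, the level was at least 162-fold higher for p53 KO cells and at least 54.9-fold higher for parental cells (adjusted p = 4.55e-07 and 8.40e-06). ROBO1 lies on chromosome 3 from 78597239 to 79767998 on the minus strand of GRCh38, where 5 other genes within 5 Mb were tested. Their median log2FC was -0.17 in Ctrl against parental cells, and 1 of the 5 was lower at an adjusted p of at most 0.05.

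RefSeq gives 2 starts for ROBO1, and the 250 bases before each are shown because the gene was detected in parental and p53 KO cells and not in Ctrl cells (GRCh38.p14, minus strand, 5′ to 3′). The distal window is chr3:79767999-79768248 and the proximal one chr3:79019460-79019709. Capitals mark a match to the p53 decamer, the unit that occurs as a pair in a full p53 element, found on either strand in 5.57% of all promoters of this length.
ROBO1, distal start: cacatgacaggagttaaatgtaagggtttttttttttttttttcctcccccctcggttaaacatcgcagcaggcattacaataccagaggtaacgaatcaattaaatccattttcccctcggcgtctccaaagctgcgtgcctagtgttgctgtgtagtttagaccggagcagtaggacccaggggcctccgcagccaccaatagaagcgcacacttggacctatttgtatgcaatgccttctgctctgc
ROBO1, proximal start: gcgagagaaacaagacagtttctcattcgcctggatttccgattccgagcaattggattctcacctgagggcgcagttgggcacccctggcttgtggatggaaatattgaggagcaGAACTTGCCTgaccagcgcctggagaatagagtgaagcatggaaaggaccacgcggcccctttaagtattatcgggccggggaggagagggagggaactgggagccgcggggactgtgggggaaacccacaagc
The match lies in the proximal window. Such a match describes letters, not binding. The windows hold 9 and 12 CpG dinucleotides and no GC box.

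ROBO3 fell where ROBO1 rose in p53 KO cells. ROBO3, a divergent ROBO receptor that binds NELL2 and not SLITs in mammals, had 1.22, 1.12 and 1.01 CPM in parental, 0.408, 0.527 and 0.534 in Ctrl, and 0.235, 0.342 and 0.447 in p53 KO libraries. Parental libraries were above all others, and Ctrl and p53 KO libraries overlapped. ROBO3 fell by 1.75 on the log2 scale in p53 KO (SE 0.27, adjusted p = 0.00115) and by 1.17 in Ctrl cells (SE 0.25, adjusted p = 0.00856), each against parental cells. The difference between the lines was -0.58 (SE 0.31, adjusted p = 0.212). Its libraries held 7 to 32 counts each.

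SLIT2 was the SLIT ligand that A431 cells expressed. It had 1.80, 1.65 and 1.71 CPM in parental, 0.867, 1.83 and 1.64 in Ctrl, and 6.94, 6.35 and 6.05 in p53 KO libraries. All p53 KO libraries were above the 6 others. SLIT2 rose in p53 KO cells by a log2FC of 1.91 against parental (SE 0.19, adjusted p = 8.85e-05) and 2.12 against Ctrl cells (SE 0.19, adjusted p = 1.86e-05), or 3.75-fold and 4.33-fold. Ctrl and parental cells differed by -0.21 (SE 0.23, adjusted p = 0.517), and by 0.01 without Ctrl replicate 1, its lowest library. SLIT2 and ROBO1, ligand and receptor, were thus both above parental cells in p53 KO cells, whereas in Ctrl cells the ligand was present and ROBO1 was not detected. The 250 bases before the SLIT2 start are shown for comparison with those of ROBO1 (GRCh38.p14, chr4:20251655-20251904, plus strand, 5′ to 3′), with capitals for GC boxes.
SLIT2: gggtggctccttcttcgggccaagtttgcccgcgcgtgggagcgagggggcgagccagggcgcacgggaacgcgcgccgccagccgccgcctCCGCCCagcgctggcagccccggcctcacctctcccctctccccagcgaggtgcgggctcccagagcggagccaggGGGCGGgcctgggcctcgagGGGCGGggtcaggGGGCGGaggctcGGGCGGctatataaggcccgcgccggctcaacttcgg
This window has 30 CpG dinucleotides and 5 GC boxes, and no p53 decamer.

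The netrin receptors moved apart from each other. UNC5B, a dependence receptor, had 4.74, 3.73 and 4.84 CPM in parental, 10.9, 9.77 and 10.3 in Ctrl, and 16.5, 15.7 and 13.6 in p53 KO libraries. The groups did not overlap, with parental cells lowest. UNC5B rose by a log2FC of 1.79 in p53 KO (SE 0.12, adjusted p = 6.99e-06) and 1.22 in Ctrl cells (SE 0.13, adjusted p = 0.000111), each against parental cells. The line without p53 exceeded Ctrl cells by a further 0.57 (SE 0.11, adjusted p = 0.00310). Both the p53 KO and the Ctrl line were thus above parental cells.

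UNC5A, a related receptor, was near the limit of detection outside p53 KO cells. It had 2, 1 and 6 counts in parental, 0, 0 and 1 in Ctrl, and 15, 18 and 11 in p53 KO libraries. The p53 KO libraries lay above the others. Since the gene entered the test through those libraries alone, its values are a description and no p is given. Against parental cells its log2FC was 2.19 (SE 0.52), and 1.74 to 3.22 when single libraries were left out. Against Ctrl cells the ratio of normalised summed counts was 42.9 (95% exact interval 7.3 to 1730, for counting error only).

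NEO1, the receptor most similar to DCC, which also binds RGM proteins, went down in p53 KO cells. It had 48.2, 42.6 and 47.2 CPM in parental, 39.6, 46.8 and 48.3 in Ctrl, and 25.4, 25.8 and 23.2 in p53 KO libraries. Parental and Ctrl libraries overlapped, and all p53 KO libraries were below them. NEO1 fell by 0.89 on the log2 scale against parental (SE 0.10, adjusted p = 0.000158) and by 0.86 against Ctrl cells (SE 0.10, adjusted p = 7.72e-05). In the summed level of the 6 netrin receptors per kb, the share of NEO1 was 89.3% for parental, 78.4% for Ctrl and 56.3% for p53 KO cells, and that of UNC5B 10.2%, 21.5% and 41.2%.

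NTN4, a netrin that binds laminins, was the netrin that A431 cells expressed. It had 22.3 to 23.2 CPM in parental, 42.2 to 47.1 in Ctrl and 25.1 to 29.5 in p53 KO libraries, with no overlap. NTN4 rose in Ctrl against parental cells by a log2FC of 0.97 (SE 0.08, adjusted p = 3.28e-05), and was lower in p53 KO than in Ctrl cells by 0.70 (adjusted p = 0.000111). In p53 KO against parental cells the value was 0.27 (adjusted p = 0.0518).

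Some members lie where many neighbouring genes shifted together. EPHB6 and EPHA1 are close neighbours on chromosome 7 (142855061 to 142871094 and 143390289 to 143408856 in GRCh38). The 46 other genes tested within 5 Mb of EPHB6 had a median log2FC of -0.52 in p53 KO against parental cells, with 20 lower and 3 higher at an adjusted p of at most 0.05. EPHB6 rose there against the median of its neighbours, while the fall of EPHA1 (-0.28) was within the quartiles of its own neighbours (-0.75 to -0.10). The gene tested closest to EPHB6, 0.015 Mb away from middle to middle, had a positive log2FC as well, of 0.942. In Ctrl against parental cells the neighbours of EPHB6 had a median of 0.15, opposite to the loss of EPHB6. EPHB3 (chromosome 3, 184561785 to 184582408) also rose against its surroundings, where the 60 others had a median of -0.36, with 30 lower. UNC5B (chromosome 10, 71212570 to 71302864) moved in the direction of its 80 neighbours, whose median was 0.38 with 39 higher and 0 lower, and its own value of 1.79 was above their upper quartile of 0.56. In Ctrl against parental cells these neighbours had quartiles of -0.26 and 0.2, with 9 higher and 7 lower, where UNC5B had 1.22. Around SLIT2, ROBO3, UNC5A, EPHA4 and NEO1 the medians in p53 KO against parental cells were between 0.01 and 0.07. The part of these regional shifts in the members' own values was not tested.

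**Figure D4:**
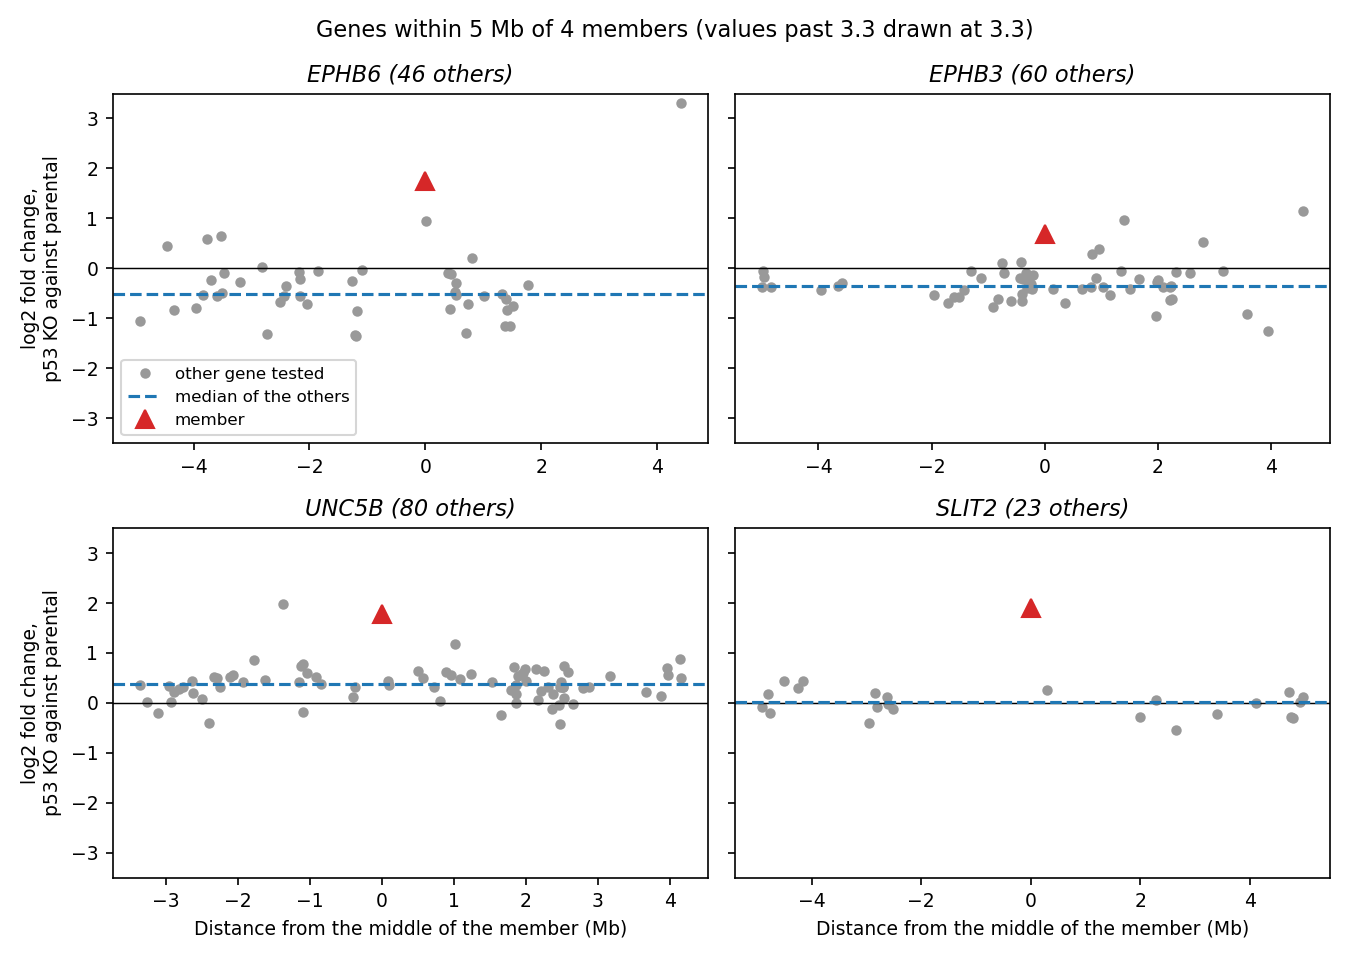
log2FC in p53 KO against parental cells of the genes tested within 5 Mb of EPHB6, EPHB3, UNC5B and SLIT2, by distance from the middle of the member in Mb. Grey points are other genes, dashed lines their median and red triangles the member. EPHB6 (1.74) and EPHB3 (0.68) lie above medians of -0.52 and -0.36, UNC5B (1.79) above a median of 0.38, and SLIT2 (1.91) above a median of 0.01. In the EPHB6 panel 1 other gene past the axis is drawn at its edge.

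Known signalling partners of these receptors were taken from a list of 82 genes set by their role, of which 63 were tested. In p53 KO against parental cells 6 were higher and 10 lower (25.4% of those tested, background 18.1%). Against Ctrl cells 12 were higher and 13 lower (39.7%, background 29.2%). Between Ctrl and parental cells 5 were higher and 9 lower (22.2%, background 20.3%). These numbers moved with single libraries, as did the share of all genes. Without Ctrl replicate 1, 34 partners passed in p53 KO against parental cells, and 33.5% of all genes. In Ctrl against parental cells 24 passed without Ctrl replicate 3 (29.6% of all genes), 8 without parental replicate 1 (9.34%) and 9 without parental replicate 3 (10.7%). The partners RGMA and FLRT3, counted here, passed the filter on low counts only through the group in which they were high. Median log2FC values of the list were -0.15, 0.01 and -0.11.

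NGEF (ephexin-1), a signalling protein bound by EPHA4, had the same order of groups as EPHA4 and EPHB6. It had 150 to 173 counts in parental, 6 to 14 in Ctrl and 256 to 290 in p53 KO libraries. Its log2FC was 0.71 in p53 KO against parental (SE 0.14, adjusted p = 0.00541) and 4.92 against Ctrl cells (SE 0.22, adjusted p = 1.32e-07). Between Ctrl and parental cells it was -4.21 (adjusted p = 1.84e-06). CHN1, a Rac-inactivating protein downstream of EPHA4, had 100 to 109 counts in parental, 27 to 38 in Ctrl and 70 to 101 in p53 KO libraries. It fell by 1.70 on the log2 scale in Ctrl against parental cells (adjusted p = 3.19e-05). FYN and YES1, Src family kinases used by Eph and ephrin signalling, fell in p53 KO against parental cells by 0.83 and 0.71 (adjusted p = 0.00184 and 0.00889). FYN also fell in Ctrl cells, by 1.51 (adjusted p = 7.05e-05), as did GRIP1, an adaptor of ephrin-B ligands, by 1.27 (adjusted p = 0.00361). KALRN, a signalling protein used by EphB receptors, was higher in p53 KO than in Ctrl cells by 1.06 (adjusted p = 0.00150).

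Some ligands lie outside the named families. RGMA, a ligand of NEO1, had 1 to 10 counts in parental, 1 to 3 in Ctrl and 22 to 35 in p53 KO libraries, which is given as a description because the filter fixed its direction. NELL2, the ligand of ROBO3, had 21 to 33 counts in parental, 19 to 25 in Ctrl and 13 to 18 in p53 KO libraries. It fell in p53 KO against parental cells by 0.95 (SE 0.22, adjusted p = 0.0111), in the same direction as ROBO3. Both genes had few counts. FLRT3, a membrane ligand of UNC5 receptors that also binds ROBO1, had 11 to 16 counts in Ctrl, 1 to 2 in p53 KO and 0 in parental libraries. The filter fixed this direction as well.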

How the data were processed

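Poly(A) RNA-Seq counts of 9 A431 libraries (3 parental, 3 Ctrl and 3 p53 KO) were analysed. Per the submitters' processing notes, the authors checked reads with FastQC, aligned them with STAR 2.5.1b to GRCh38 and counted them per gene with featureCounts on an Ensembl annotation. The deposited values are raw counts, whole numbers without normalization, for 58051 genes. Columns were matched to libraries through their names and groups taken from the sample titles.

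Counts were filtered with filterByExpr (minimum count 10, 14513 genes left), normalized by TMM and fitted with a mean per group over all 9 libraries in edgeR 4.0.16 (R 4.3.3). Groups were compared with its quasi-likelihood test, corrected by Benjamini-Hochberg across all genes tested, at an adjusted p of at most 0.05. The step was tested on simulated data. Standard errors follow from the F statistic. CPM uses TMM library sizes, and lengths and positions come from GENCODE 44, which is on the build of the counts. Where all libraries of a group had 0 counts, a fold is a lower bound against 3 counts per library. Where none of them exceeded 3 counts but not all were 0, a ratio of normalised summed counts is given with its 95% Clopper-Pearson interval. Promoter sequences come from RefSeq (GRCh38.p14) and were found for 33 of the 39 genes. With library totals of 19783778 to 29840452, intervals and limits cover counting error only.

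The members and lists were chosen with earlier results of these data known. The rule for full description was an adjusted p of at most 0.05 with a log2 fold change above 1 in size in at least 1 comparison (8 genes), and up to 5 signalling partners per comparison by size. EPHA3 and the other members outside that rule are named because every member is accounted for. Alternatives were DESeq2 1.42.0, fits of 2 groups only, DESeq2's size factors, other filters, the replicate number as a block and each library left out in turn. No library was left out of the results reported. The level of the targeted gene is not reported here. Figures were drawn with matplotlib 3.10.9.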

Additional observations from a re-analysis of the deposited data

Results flagged for a closer look

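For 5 genes the change against parental cells had opposite signs in p53 KO and Ctrl cells and passed the test in both lines. The difference between the lines, p53 KO against Ctrl cells, is 1 of these changes minus the other in the same fit. It passed as well, which follows largely from how the genes were picked and is no separate support. That difference was a log2 fold change of 1.28 for EPHA4, 0.68 for EFNB2 and -0.55 for EPHA1. For EPHB6 the fitted value was 7.24 and for ROBO1 11.98, and these fitted values depend on the near absence of counts in Ctrl cells and are not bounds. EPHB6, EPHA4, EFNB2 and ROBO1 were higher in p53 KO and lower in Ctrl cells, and EPHA1 the reverse. The calls of EFNB2 and EPHA1 against parental cells were lost in several of the fits that left out a library, those of EPHB6 and ROBO1 in none of these fits, and that of EPHA4 in Ctrl cells in 1 of them.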

How the results depend on the processing

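Other tools, scalings and filters left 403 of 427 values of single genes in the same direction and on the same side of the threshold, and leaving out each library in turn left 519 of 567. Leaving out libraries gave 9 to 15 members past the test in p53 KO against parental cells, 13 to 15 in p53 KO against Ctrl cells and 8 to 14 in Ctrl against parental cells, and 14 to 34, 18 to 34 and 8 to 24 signalling partners. The share of all genes tested that passed moved too, over 10.6% to 33.5%, 21.0% to 35.0% and 9.34% to 29.6%. With at least 10 counts required in every library, which left 17 members, 7 passed in p53 KO against parental cells (18.0% of all genes), and those beyond a log2FC of 1.5 in size were 2, 1 and 0 in the 3 comparisons, since the filter removes genes that are near 0 in 1 group. In p53 KO against parental cells 33 partners passed with edgeR (34.1% of all genes) and 32 with DESeq2 (31.2%) on those 2 groups alone, and 26 with genes kept from 1 count on (12.3%). In Ctrl against parental cells 8 passed with edgeR on those groups alone (13.2% of all genes). The cause of these shifts was not tested.

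Some values changed sign when a library was left out, none of which passed the test. For EFNA4 in p53 KO against Ctrl cells the range was -0.31 to 0.04. In Ctrl against parental cells it was -0.38 to 0.07 for EFNA3, -0.13 to 0.08 for EPHA10 (0.01 without parental replicate 2), -0.09 to 0.05 for NEO1 and -0.41 to 0.01 for SLIT2. EFNB2 and EPHA1 were near the threshold in both lines against parental cells, as was EPHB3 in Ctrl against parental cells. EFNA3 and NTN4 were near it in p53 KO against parental cells. These values crossed the threshold under several alternatives.

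Same-numbered libraries did not deviate together (correlations of -0.348 to 0.041 over 9 pairs, and 0 libraries correlated best with their own number in both other groups), so the replicate numbers were not taken as a pairing. Over the 18 pairs with different numbers the correlations were -0.222 to 0.395, with 6 above 0.1. The highest was that of Ctrl replicate 1 with p53 KO replicate 3. A pairing or batch under other numbers was not tested. With the replicate number as a block, 9, 14 and 8 members and 14, 19 and 8 signalling partners passed in the 3 comparisons, and 12.1%, 23.5% and 11.7% of all genes.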

Other observations

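The 33 members found in the RefSeq promoter table have 44 annotated starts among them. A match to the p53 decamer (the unit that occurs as a pair in a full p53 element) lay in the 250 bases before 4 of these starts, belonging to 3 genes (ROBO1, ROBO3 and NTN4), where 5.57% of all 35116 promoters hold such a match. The ROBO1, ROBO3 and NTN4 matches lie before starts that are inside the GENCODE genes. The windows of SLIT2, EPHB6 and EPHA4 held no match. Such matches describe letters, not binding, and their part in the changes of these genes was not tested.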
